A study of Mus musculus with 9 samples.

Results

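The nuclear genes for the subunits of the mitochondrial oxidative phosphorylation system were followed through 9 RNA libraries of G1E cells. Members were taken by symbol from the gene table: every name beginning with Ndufa, Ndufb, Ndufc, Ndufs or Ndufv and a digit, with Uqcr, Atp5 or Cox4 to Cox8, together with Sdha, Sdhb, Sdhc, Sdhd, Cyc1 and Cycs. The rule matched 86 of 27999 rows, and none of these was a -ps (pseudogene) name. Of these, 5 isoform genes had fewer than 90 counts over all libraries and were dropped: Cox4i2 with 1 count, Cox6a2 with 5 counts, and Cox7b2, Cox8b and Cox8c with 0 counts each. The remaining 81 members comprised 35 of complex I, 4 of complex II, 9 of complex III, 1 for cytochrome c, 15 of complex IV and 17 of complex V (ATP synthase). Ndufa4 and its paralogue Ndufa4l2 were placed with complex IV, the known place of the NDUFA4 protein. The name rule also takes in Atp5s and Atp5sl, which carry an ATP synthase symbol although their products are known as accessory or assembly proteins rather than as core subunits. Both were counted with complex V by symbol alone, and whether their products act on that complex was not checked.

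Oxidative phosphorylation couples the oxidation of NADH and succinate to ATP synthesis across the inner mitochondrial membrane. Complex I and complex II pass electrons to ubiquinone, complex III passes them on to cytochrome c, complex IV reduces oxygen, and complex V uses the resulting proton gradient to make ATP. Most subunits are encoded in the nucleus and imported, while a small core of complexes I, III, IV and V is encoded by mitochondrial DNA. The mitochondria of maturing erythroblasts also supply the haem that haemoglobin needs, and they are removed before the red cell is finished.

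G1E is a mouse erythroid progenitor line that has no functional Gata1 gene, a loss that all 9 libraries share, so the empty vector group is the line without GATA1 and not a normal cell. The cells were kept in IMDM medium with FCS, antibiotics (Pen/Strep), MTG, EPO and murine SCF, and were spin-infected with virus made in 293T cells from an HMD vector that was empty, carried human GATA1 wildtype or carried a human GATA1 mutant. There were 3 libraries in each group. The mutation, the time from infection to lysis and any selection of infected cells are things not given in the sources used here. G1E is a single established line, and nothing in the labels says that the libraries of a group came from separate cultures, so the p-values speak to the spread among these libraries, which may be technical.

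Library totals ran from 11364358 to 17289307 counts. Human GATA1 itself had 0, 2 and 0 counts in empty vector replicates 1, 2 and 3, from 8178 to 10696 counts in the wildtype libraries and from 8848 to 11497 in the mutant libraries. All 8 listed markers of the erythroid progenitor state (such as Kit, Gata2 and Epor) were present. With the wildtype against the empty vector, 4 of these 8 were higher and 2 lower, where 11.4% and 11.9% of all genes were. The summed level of 7 markers of maturing erythroid cells (globins, Slc4a1, Alas2, Epb42) was 292 to 334 CPM (counts rescaled so that all libraries have the same total) with the empty vector, 17616 to 28553 CPM with wildtype GATA1 and 1389 to 1525 CPM with the mutant. Of 8 mast cell and basophil markers, Mcpt8, Tpsb2 and Mcpt4 had no count and the others summed to 111 to 149 CPM with the empty vector and 28.2 to 34.4 CPM with the wildtype. Of 4 tested megakaryocyte markers 3 were lower with the wildtype. Granulocyte and lymphoid markers summed to at most 2.85 CPM in every library. The part of these cell states in the results below was not tested. In these bulk libraries, a change in the number of maturing cells and a change of RNA within each cell cannot be told apart.

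Promoter sequences are shown for 6 members: Cox6b2, Atp5e, Cox6a1, Atp5l, Cycs and Cox7a1. Cox6b2 and Atp5e rose most with wildtype GATA1, Cycs was not called, and Cox7a1 had the lowest fold change. Cox6a1 and Atp5l, which also rose, were taken because their windows hold both an NRF1 and an ETS match, motifs described below. The choice was made with these responses known. Each line holds the 250 bases before the annotated start, 5′ to 3′ on the strand of the gene, from RefSeq on GRCm38.p6. The windows are, for Cox6b2, chr7:4753095-4753344 on the minus strand; for Atp5e, chr2:174464102-174464351 on the minus strand; for Cox6a1, chr5:115348959-115349208 on the minus strand; for Atp5l, chr9:44920743-44920992 on the minus strand; for Cycs, chr6:50566570-50566819 on the minus strand; and for Cox7a1, chr7:30183921-30184170 on the plus strand. Capitals mark matches, on either strand, to any of 3 motifs whose letters are spelled out after the sequences: an NRF1 core, an ETS site of the kind bound by GABPA, and a GATA site.
Cox6b2: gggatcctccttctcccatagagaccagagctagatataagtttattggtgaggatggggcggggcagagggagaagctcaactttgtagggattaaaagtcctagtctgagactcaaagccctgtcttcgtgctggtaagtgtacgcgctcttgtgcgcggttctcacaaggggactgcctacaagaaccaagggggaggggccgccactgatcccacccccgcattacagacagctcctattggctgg
Atp5e: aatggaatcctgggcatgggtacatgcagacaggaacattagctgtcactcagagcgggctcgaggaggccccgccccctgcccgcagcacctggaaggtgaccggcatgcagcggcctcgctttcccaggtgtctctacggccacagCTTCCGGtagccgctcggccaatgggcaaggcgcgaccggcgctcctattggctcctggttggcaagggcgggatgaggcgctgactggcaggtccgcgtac
Cox6a1: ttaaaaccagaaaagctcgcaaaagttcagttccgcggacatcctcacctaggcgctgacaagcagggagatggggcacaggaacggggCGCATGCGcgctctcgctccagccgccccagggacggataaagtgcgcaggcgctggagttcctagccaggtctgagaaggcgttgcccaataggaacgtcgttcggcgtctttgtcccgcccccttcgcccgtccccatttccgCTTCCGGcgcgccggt
Atp5l: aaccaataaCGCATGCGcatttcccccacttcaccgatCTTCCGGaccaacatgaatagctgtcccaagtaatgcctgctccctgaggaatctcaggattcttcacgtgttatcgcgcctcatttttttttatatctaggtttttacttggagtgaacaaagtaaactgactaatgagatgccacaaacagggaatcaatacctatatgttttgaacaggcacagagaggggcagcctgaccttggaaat
Cycs: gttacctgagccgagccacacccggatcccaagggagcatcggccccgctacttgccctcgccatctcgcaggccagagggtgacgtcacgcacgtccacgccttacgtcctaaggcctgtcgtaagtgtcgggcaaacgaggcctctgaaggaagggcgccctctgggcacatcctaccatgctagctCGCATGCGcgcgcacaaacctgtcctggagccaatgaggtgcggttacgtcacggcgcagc
Cox7a1: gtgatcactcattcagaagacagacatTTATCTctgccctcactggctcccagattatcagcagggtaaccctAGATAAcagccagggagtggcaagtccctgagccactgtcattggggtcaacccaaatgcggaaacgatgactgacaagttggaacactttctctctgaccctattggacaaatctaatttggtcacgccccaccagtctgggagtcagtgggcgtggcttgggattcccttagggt

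NRF1 and GABPA are transcription factors known for driving nuclear genes of the respiratory chain. A window was at hand for 65 of the 81 members. The NRF1 letters CGCATGCG occurred in 7 of the 65 (10.8%), against 1.58% of the windows of 27025 genes; these 7 were Atp5g2, Atp5k, Atp5l, Cox6a1, Cycs, Ndufa11 and Ndufa8. The ETS letters CCGGAAG occurred in 11 of the 65 (16.9%) against 7.05% of all windows. AAGATGGC, the core of the site of the factor YY1, was in 0 of the 65 member windows and in 1.59% of all windows. The GATA letters AGATAA were in 6 of the 65 (9.23%), namely Atp5g1, Atp5g3, Cox7a1, Cox7c, Ndufa12 and Ndufc2, and in 10.3% of all windows. In the windows printed above, Cox6a1 and Atp5l held an NRF1 and an ETS match, for which they were chosen. Atp5e held an ETS match, Cycs an NRF1 match and Cox7a1 a pair of GATA matches, while Cox6b2 held none of the 4 motifs. These counts describe letters in a fixed window and not binding.

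With wildtype GATA1, 23 of the 81 members rose against the empty vector and 0 fell. Calls rest on an adjusted p below 0.05 in edgeR's quasi-likelihood test with Benjamini-Hochberg adjustment over all 9978 genes tested, among which all 81 members were included. Over all genes 11.4% were called higher and 11.9% lower, so the members were called higher at 28.4%, above the background, and lower at 0. The median log2 fold change of the members was 0.37, against -0.04 for all genes. It was positive for 74 members and negative for 7, and 44 of the 81 had an unadjusted p under 0.05. The called increases ran from 0.40 (Ndufs3) to 1.48 (Cox6b2) on the log2 scale, and Cox6b2 stood apart: the next was Atp5e at 0.98.

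Levels before the response differed widely between subunits. Per transcript length, the empty vector means of complex I ran from 6.05 (Ndufb2) to 484 (Ndufb9) CPM per kilobase with a median of 188. Without the division by length, Ndufs5 lay below Ndufb2 (5.14 against 14.6 CPM). The lowest place of Ndufb2 thus rests on its annotated length of 2413 bases. Complex III ran from 219 (Uqcrc2) to 751 (Uqcr11). Complex II lay between 44.7 (Sdhc) and 336 (Sdhd). Complex V ran from 15.0 (Atp5s) to 1578 (Atp5b), and complex IV from 6.07 (Cox6b2) to 1568 (Cox4i1) with a median of 560. Subunits of 1 complex are assembled in fixed ratios as proteins, but their RNA levels per length were not equal in any of the complexes.

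**Figure D1:**
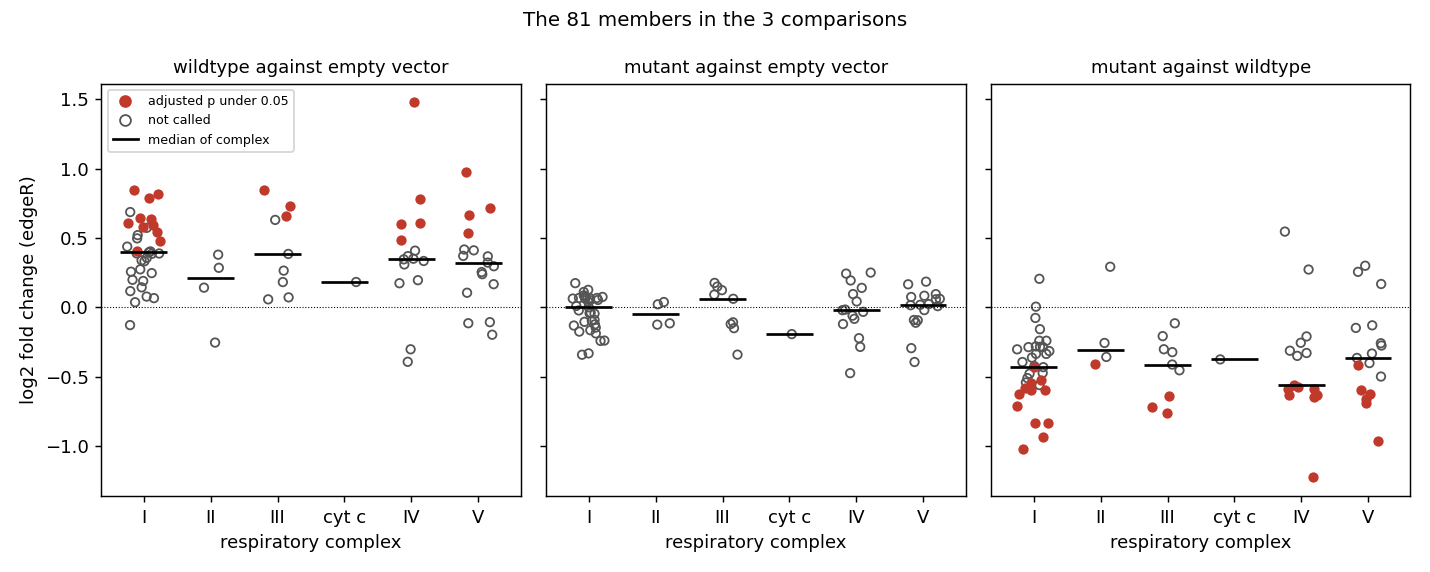
Log2 fold changes (edgeR, vertical axis) of the 81 members in the 3 comparisons, 1 point per gene, arranged by respiratory complex, with the median of each complex as a bar. Filled points passed an adjusted p of 0.05. With wildtype GATA1 the filled points are all above 0 (23 genes), the mutant against empty vector has none, and the mutant against wildtype has 30, all below 0.

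Complex I, the NADH dehydrogenase, held 11 of the 23 called increases among its 35 members, with a median log2 fold change of 0.40. Of the 11, 6 are accessory subunits of the membrane arm (Ndufa11, Ndufb4, Ndufb7, Ndufb8, Ndufb9 and Ndufb10). Other accessory subunits of that arm, such as Ndufb2, were not called. Their share among the 35 was not counted, so no concentration of the increases in that arm is shown. Ndufb9 (chr15:58933756-58939488 on the plus strand; GRCm38, GENCODE release M21) stood at 408, 290 and 324 CPM in empty vector replicates 1, 2 and 3 and at 637, 754 and 447 CPM in the wildtype libraries. Every wildtype library was above every empty vector library, and the log2 fold change was 0.85 ± 0.18 (SE; edgeR's quasi-likelihood adjusted p = 0.00453). Ndufb8 had 261, 172 and 201 CPM with the empty vector and 347, 499 and 268 CPM with the wildtype, an increase of 0.81 ± 0.21. Here wildtype replicate 3 was only just above the highest empty vector library. Ndufs4, an accessory subunit needed for a stable complex I, rose by 0.58 ± 0.14 (127, 102 and 98.4 CPM against 165, 188 and 136 CPM). The others called were Ndufb4 (0.79), Ndufa2 (0.65), Ndufa11 (0.64), Ndufb7 (0.61), Ndufa6 (0.59), Ndufb10 (0.54), Ndufa5 (0.48) and Ndufs3 (0.40).

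Of the 7 nuclear-encoded subunits of the catalytic core of complex I, Ndufs3 was the 1 that was called. Ndufs1, the largest iron-sulfur subunit, had 419, 384 and 343 CPM with the empty vector and 431, 426 and 385 CPM with the wildtype (log2 fold change 0.12 ± 0.11, edgeR adjusted p = 0.475), and the groups overlapped. Ndufv1, the subunit that binds NADH, gave 323, 305 and 360 CPM against 471, 493 and 338 CPM (0.40 ± 0.15, adjusted p = 0.073). Its wildtype replicates 1 and 2 were above all empty vector libraries and replicate 3 was among them. Ndufa9, an accessory subunit of the arm near the membrane, was not called at 0.25 ± 0.14. Ndufv3 was the single complex I member with a negative value, -0.13 ± 0.18.

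Complex II, succinate dehydrogenase, is wholly encoded in the nucleus and is shared with the citric acid cycle. None of its 4 members was called. Sdha, the flavoprotein that oxidises succinate, was 625, 684 and 727 CPM with the empty vector and 632, 542 and 534 CPM with the wildtype, a log2 fold change of -0.25 ± 0.11 (edgeR adjusted p = 0.124). Sdhb, the iron-sulfur subunit, went the other way at 0.38 ± 0.15 (adjusted p = 0.0798), and the membrane anchors Sdhc and Sdhd gave 0.14 ± 0.14 and 0.28 ± 0.13.

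In complex III, the cytochrome bc1 complex, 3 of 9 members rose, all of them small subunits outside the catalytic centre. Uqcrq stood at 255, 196 and 236 CPM with the empty vector and at 417, 542 and 275 CPM with the wildtype (0.84 ± 0.21, edgeR adjusted p = 0.00985). Its groups did not overlap. Uqcr10 rose by 0.73 ± 0.21 and Uqcrh, the hinge protein, by 0.66 ± 0.18. The catalytic subunits were not called: Cyc1 (cytochrome c1) gave 0.38 ± 0.17 and Uqcrfs1 (the Rieske iron-sulfur protein) 0.06 ± 0.12, and the core protein Uqcrc1 gave 0.26 ± 0.15. Cycs, the electron carrier cytochrome c, was 83.0, 72.1 and 60.2 CPM with the empty vector and 84.8, 90.3 and 69.2 CPM with the wildtype (0.18 ± 0.14, adjusted p = 0.387), with overlapping groups.

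Complex IV, cytochrome c oxidase, is the complex with tissue-specific isoforms, and 5 of its 15 members rose. Cox4i1, the common form of the largest nuclear subunit, was its most abundant member per transcript length (1568 CPM per kilobase with the empty vector). It gave 1304, 1013 and 1234 CPM against 1859, 2281 and 1259 CPM, an increase of 0.60 ± 0.19 (edgeR adjusted p = 0.0366). Wildtype replicate 3 lay within the empty vector range. Cox6a1, the liver-type form of subunit VIa, rose by 0.78 ± 0.19 (318, 278 and 366 CPM against 586, 671 and 399 CPM, with no overlap), Cox7a2, the liver-type form of subunit VIIa, by 0.60 ± 0.15, and Cox6c by 0.49 ± 0.13.

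Cox6b2, known as the testis isoform of subunit VIb, had the largest fold change of the 81 members and, per length, the lowest level of complex IV, 6.07 CPM per kilobase with the empty vector. The gene lies at chr7:4751792-4753094 on the minus strand (GRCm38, GENCODE release M21). It measured 3.67, 2.52 and 3.54 CPM with the empty vector, 9.12, 10.5 and 7.55 CPM with the wildtype and 4.13, 3.74 and 3.70 CPM with the mutant. All wildtype libraries were above all others, and the increase was 1.48 ± 0.21 on the log2 scale, a 2.79-fold rise (edgeR adjusted p = 0.000239). Its somatic partner Cox6b1 was at 578, 454 and 532 CPM with the empty vector and 701, 770 and 467 CPM with the wildtype and was not called (0.31 ± 0.18).

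The other isoform members of complex IV were not called. Cox7a1, the partner of Cox7a2 and the muscle-type form of subunit VIIa, had the lowest log2 fold change of the members, -0.39 ± 0.26 (21.3, 13.4 and 14.5 CPM against 10.6, 17.4 and 9.49 CPM). Ndufa4 gave 0.35 ± 0.15 and Ndufa4l2, a paralogue known to be induced by low oxygen, -0.30 ± 0.20. Ndufa4l2 stood at 160, 159 and 172 CPM with the empty vector and at 88.0, 172 and 138 CPM with the wildtype, so its wildtype libraries differed among themselves by more than the groups did. Cox5a (0.41), Cox8a (0.35), Cox7b (0.37) and Cox7a2l (0.20), the last known as a factor that joins complexes III and IV, were also not called.

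In complex V, 4 of 17 members rose. Atp5e, the epsilon subunit of the central stalk, lies at chr2:174461072-174464105 on the minus strand. It had 134, 97.5 and 108 CPM with the empty vector and 220, 296 and 152 CPM with the wildtype, with no overlap, and rose 1.97-fold (0.98 ± 0.20, edgeR adjusted p = 0.00321). Atp5k and Atp5l, the small membrane subunits e and g, rose by 0.72 ± 0.21 and 0.67 ± 0.19, and Atp5h, a subunit of the peripheral stalk, by 0.53 ± 0.15. The catalytic head did not pass the test: Atp5b, the beta subunit and the most abundant member per length (1578 CPM per kilobase with the empty vector), gave 0.17 ± 0.12, and Atp5a1, the alpha subunit, -0.11 ± 0.12. The 3 genes for the identical c subunit of the rotor ring gave 0.37 ± 0.16 (Atp5g1), -0.20 ± 0.16 (Atp5g2) and 0.24 ± 0.13 (Atp5g3), none of them called. Atpif1, the natural inhibitor of the ATP synthase and not itself a member, rose by 1.08 ± 0.17, from 281, 175 and 194 CPM to 443, 547 and 386 CPM.

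**Figure D2:**
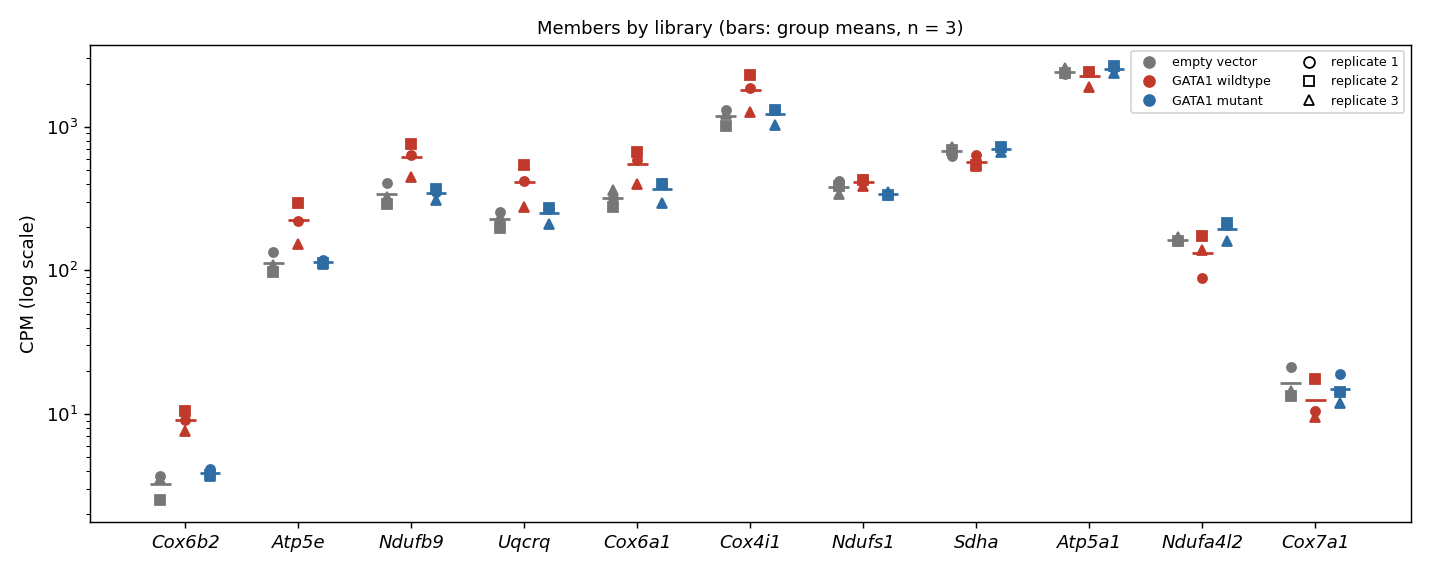
CPM (log scale) of 11 members in each of the 9 libraries, with group means as bars. Cox6b2 and Atp5e have all 3 wildtype points above the empty vector and mutant points; Sdha, Atp5a1 and Ndufa4l2 do not, and wildtype replicate 3 (triangle) is the lowest wildtype point for Atp5e, Ndufb9, Uqcrq, Cox6a1 and Cox4i1.

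The increase was not equal in the 3 wildtype libraries. Over the 81 members, the median log2 difference from the empty vector mean was 0.42, 0.58 and 0.04 in wildtype replicates 1, 2 and 3, and 0.15, -0.13 and 0.01 in the empty vector libraries. Members took 3.34%, 3.49% and 2.68% of the counts of the wildtype libraries and 2.86%, 2.54% and 2.80% of the empty vector libraries. Wildtype replicate 3 thus lay among the empty vector libraries. The same order appeared in each complex: for complex I the wildtype medians were 0.46, 0.67 and 0.04, and for complex IV 0.43, 0.59 and 0.10.

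The 13 mitochondrially encoded subunit genes moved differently between these libraries. They took 1.23% of the counts of wildtype replicate 3 and 0.890% of those of mutant replicate 3, against 0.313% to 0.601% in the other 7 libraries. mt-Co1, the catalytic subunit of complex IV, was at 553, 529 and 1546 CPM in wildtype replicates 1, 2 and 3, and mt-Cytb at 871, 846 and 2488 CPM. Of the 13 genes 7 were tested, and none was called in any comparison. Whether this difference bears on the members' lower values in wildtype replicate 3 was not tested.

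**Figure D3:**
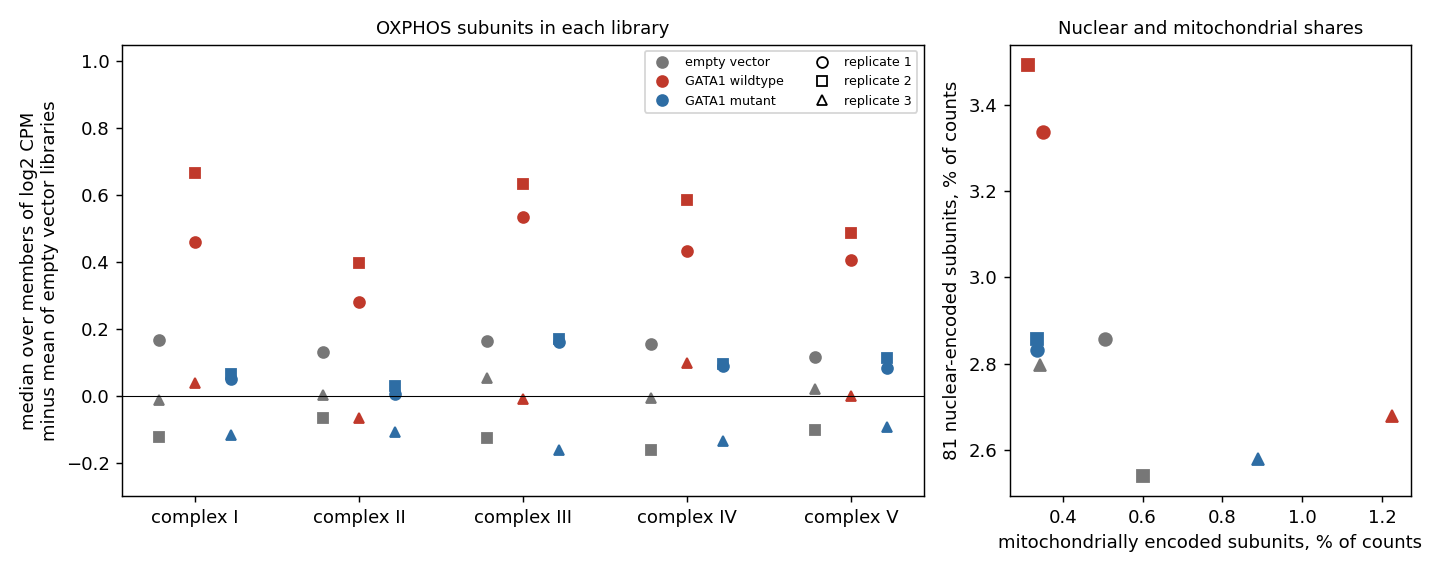
Left, the median over members of log2 CPM minus the mean of the empty vector libraries, by complex and library; right, the share of counts of the 81 nuclear-encoded members against that of the 13 mitochondrially encoded genes. Wildtype replicates 1 and 2 lie at the top in every complex, and wildtype replicate 3 lies near 0 and at 1.23% mitochondrially encoded counts.

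Single libraries therefore set how many members were called. Without wildtype replicate 3, 55 of 81 members were called higher and 0 lower by edgeR, with 16% of all genes called higher and 16.3% lower. Without wildtype replicate 1 the count was 12 (14.8% of members against 8.45% of all genes). Without wildtype replicate 2 it was 7 (8.64% against 8.43%), and without empty vector replicate 2 it was 4 (4.94% against 7.24%; Atp5e, Cox6b2, Ndufa6 and Ndufb9). In these last settings the members' share of increases was near or below that of all genes. Atp5e, Cox6b2 and Ndufb9 were called higher under all 18 alternatives that were run for this comparison.

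Member transcripts are short, and the fold change varied with transcript length across all genes. The median transcript of the 79 members with a length was 865 bases, against 2821 bases for the other tested genes. The 23 members that rose had a median of 623 bases (371 to 1698), and those not called 1038.5 bases. Over the 79 members the Spearman correlation of log2 fold change with length was -0.44, a description across genes that share the same 6 libraries. Among other genes the median log2 fold change was 0.35 under 600 bases, 0.31 at 600 to 800, 0.26 at 800 to 1000, 0.15 at 1000 to 1500, 0.01 at 1500 to 2500 and -0.14 from 2500 bases on. In the same classes the members' medians were 0.59, 0.47, 0.40, 0.27, 0.19 and 0.14, above the other genes in each class; all classes but the shortest hold fewer than 20 members.

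**Figure D4:**
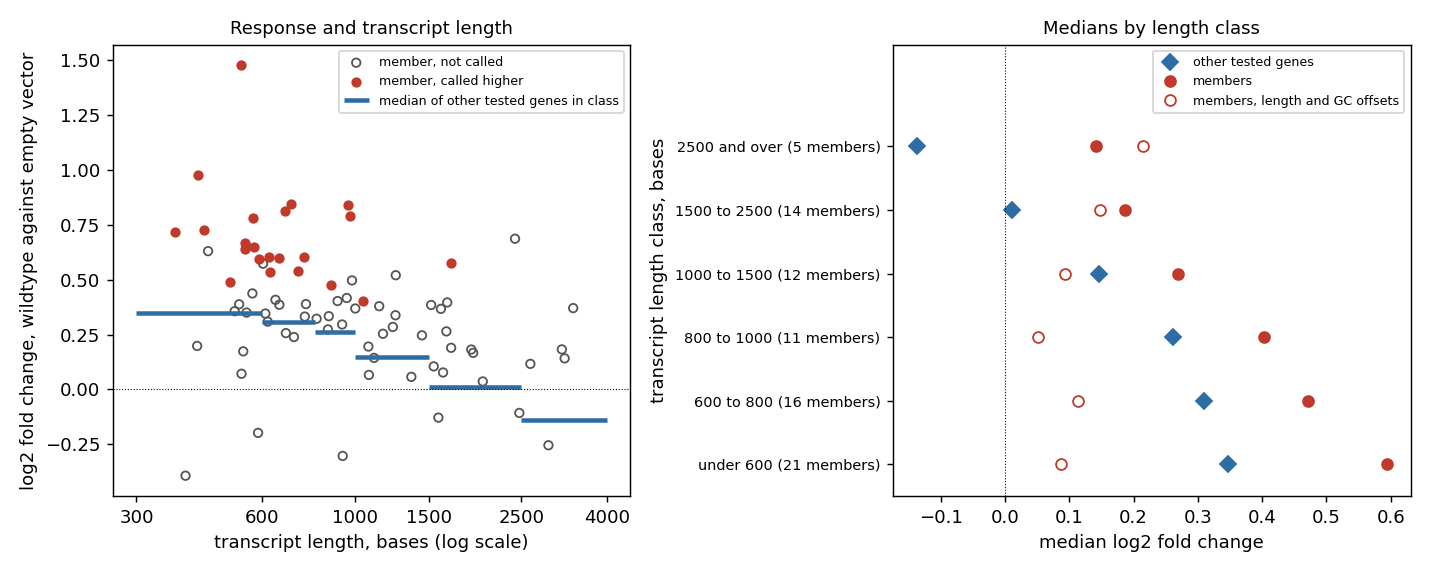
Left, log2 fold change of each member with wildtype GATA1 against transcript length (log scale), with the median of other tested genes per length class as a line; right, the medians by length class. Members lie 0.59 against 0.35 in the shortest class, and with length and GC offsets their medians lie between 0.05 and 0.22.

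When length and GC content were entered as smooth offsets per library, which sets each gene beside genes of like length and GC, the members' median log2 fold change with the wildtype was 0.11. Then 12 of 79 members were called higher and 5 lower, against 16.7% and 19.2% of all genes. So with offsets the members' share of increases (15.2%) was near the background. Cox6b2 (0.99), Ndufs4 (0.58), Uqcrq (0.51), Atp5e (0.40), Ndufb9 (0.40), Ndufb8 (0.35) and Cox6a1 (0.32) kept their call, and Ndufb2, Atp5g1, Ndufa13, Ndufc1 and Ndufv1 gained it. The offsets use annotated lengths, which for Ndufb2 and Atp5g1 are 2413 and 3324 bases. Whether the transcripts in these cells have those lengths was not tested. Those called lower were Cox7a1 (-0.97), Atp5g2 (-0.65), Ndufa4l2 (-0.60), Ndufv3 (-0.31) and Ndufa1 (-0.25); Ndufa1 was at 0.20 without offsets. Length, GC content and membership in this gene set go together, so their parts cannot be told apart in these libraries.

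The mutant did not separate the members from the empty vector. By edgeR's quasi-likelihood test 0 of 81 were called higher and 0 lower, where 0.21% and 0.0601% of all genes were called; DESeq2 also called 0 and 0. At an unadjusted p under 0.05 there were 4 (Atp5s, Cox7c, Ndufc2 and Uqcrb, all with negative values). Over the 79 members with a GC value, lower fold changes went with lower GC content (Spearman correlation 0.74). The part of GC content in these 4 values was not tested. The median log2 fold change was 0.01, with 42 members above 0 and 39 below. By complex the medians lay between -0.05 (complex II) and 0.06 (complex III), with -0.19 for the lone cytochrome c gene. Per library, the members' median difference from the empty vector mean was 0.06, 0.07 and -0.13 in mutant replicates 1, 2 and 3, within the range of the empty vector libraries for the first 2 and level with their lowest for the last.

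Cox7c, a small membrane subunit of complex IV, had the lowest value, -0.47 (edgeR adjusted p = 0.361), from 150, 105 and 75.4 CPM with the empty vector to 76.4 to 81.03 CPM with the mutant. The empty vector libraries spread over more than the difference. Atp5e was at 119, 113 and 111 CPM with the mutant, inside the empty vector range of 97.5 to 134 CPM. Without empty vector replicate 3, edgeR called 3 members lower (Cox7c, Ndufc2 and Uqcrb), 3.7% of the members against 6.05% of all genes. A p that misses the threshold does not show that mutant and empty vector cells had equal levels.

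Against the wildtype, 30 of 81 members (37%) were lower with the mutant and 0 higher, where edgeR called 12.7% of all genes lower and 13.2% higher. This comparison uses the same wildtype libraries as the comparison with the empty vector and is no independent support for it. The median log2 fold change was -0.40 over the members and -0.01 over all genes, and 52 members had an unadjusted p under 0.05. By complex, 12 of 35 fell in complex I (median -0.43), 1 of 4 in complex II (Sdhd, -0.41), 3 of 9 in complex III (-0.41), 8 of 15 in complex IV (-0.56) and 6 of 17 in complex V (-0.37). Cycs was not called at -0.38 (adjusted p = 0.0733).

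The decreases were led by Cox6b2 (-1.23 ± 0.20, edgeR adjusted p = 0.000936). Next came Ndufb2, an accessory subunit of the membrane arm of complex I at a low level: 21.2, 31.6 and 17.7 CPM with the wildtype and 12.8, 12.2 and 9.68 CPM with the mutant (-1.02 ± 0.27, adjusted p = 0.0152). Its groups did not overlap. Atp5e followed at -0.96 ± 0.20, with mutant libraries at 119, 113 and 111 CPM and wildtype libraries at 152 CPM or more. Ndufb9 had 349, 369.5 and 311 CPM with the mutant, all below its lowest wildtype library (447 CPM). The rest of the 10 largest decreases were Ndufb4 (-0.94), Ndufb9 (-0.84), Ndufb8 (-0.84), Uqcrh (-0.76), Uqcrq (-0.72), Ndufs4 (-0.71) and Atp5k (-0.69). The highest value among the members was that of Ndufa4l2, 0.55 ± 0.20 (adjusted p = 0.0576), with 207, 213 and 161 CPM with the mutant; DESeq2 called it higher, as did edgeR without the low-count filter, without mutant replicate 3 or without wildtype replicate 2. Sdha was 708, 720 and 662 CPM with the mutant, above every wildtype library, at 0.29 ± 0.11 (adjusted p = 0.0747).

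Replicates with the same number in the mutant and wildtype groups deviated together, but so did replicates 1 and 2 across numbers. Mutant replicate 1 correlated with wildtype replicate 2 at 0.24, and mutant replicate 2 with wildtype replicate 1 at 0.22. Replicate 3 stood apart (0.53 between the groups), so a pairing by number cannot be told from a split of replicate 3 from the others. With the replicate number as a block on these 6 libraries, a fit chosen after seeing the data, edgeR called 67 members lower and 3 higher (Ndufa4l2, Sdha and Atp5sl), against 24.5% and 23.6% of all genes. With the block on all 9 libraries 24 members were lower (29.6% against 10% of all genes). With length and GC offsets and no block, 25 of 79 were lower and 4 higher (Cox7a1, Ndufa4l2, Atp5g2 and Sdha), against 16.4% and 18.2% of all genes, and the median was -0.16. Without wildtype replicate 3, 60 members were lower (74.1% against 15.6% of all genes), and without wildtype replicate 2, 16 (19.8% against 9.01%). Of the 30 members that fell, 12 were called under all 20 alternatives: Atp5e, Atp5f1, Atp5h, Cox6b2, Cox7a2, Ndufa5, Ndufb3, Ndufb4, Ndufb8, Ndufb9, Ndufs4 and Uqcrh.

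**Figure D5:**
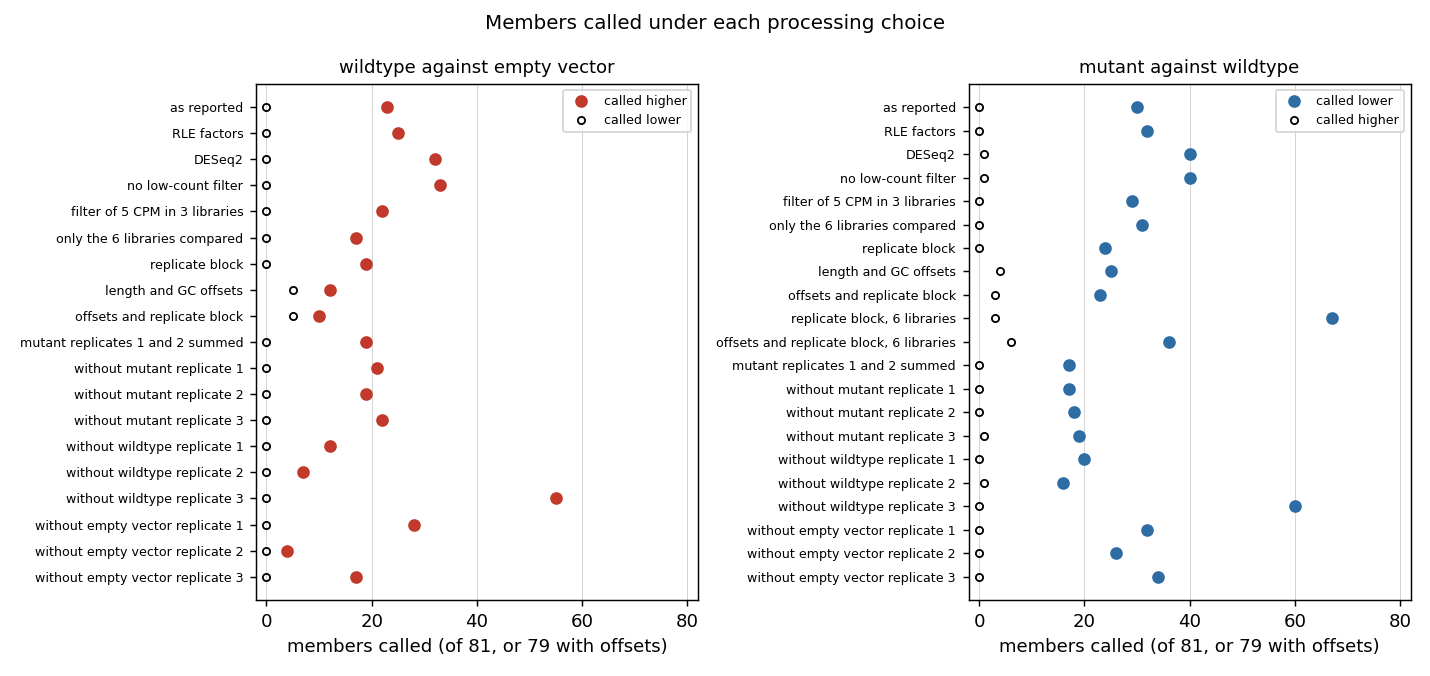
Number of members called under each processing choice, for wildtype against empty vector (left) and mutant against wildtype (right). The left count runs from 4 (without empty vector replicate 2) to 55 (without wildtype replicate 3), and the right count from 16 to 67.

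Some members are uncertain because of their sequence or position. Of the 79 members compared, 52 shared at least 1 stretch of 40 bases with another gene. In Atp5l 85.1% of such stretches were shared, with pseudogenes among the partners, and in Uqcrb 51.2%, so reads of these genes could have been split or gained in counting; Cox6b2, Sdha and Uqcrq shared none. The spans of 21 members, introns included, overlap a gene on the opposite strand, among them Cox4i1 (with Emc8), Cox6c (with Vps13b) and Ndufa11 (with Vmac). Since the libraries kept no strand, reads from stretches that both transcripts hold cannot be told apart. Not every overlap holds such a stretch: Ndufa4l2 overlaps Shmt2 but shared no stretch of 40 bases with another gene. Cox6c overlaps Vps13b, but the 2 genes that shared a stretch with Cox6c were both pseudogenes.

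Related genes outside the name rule were read from the same fit. A list of 4 genes, set up as further subunits, held Ndufab1, Usmg5, 2010107E04Rik and 1810022K09Rik. Whether 1810022K09Rik encodes a subunit was not checked. Of the 4, Ndufab1, the acyl carrier protein of complex I, rose with the wildtype (0.41), which is 25% against 11.4% of all genes. All 4 fell with the mutant against the wildtype, where 12.7% of all genes fell. Of 50 tested assembly factors 8 rose with the wildtype and 0 fell, with a median of 0.12; the share of increases was 16%, against 11.4% of all genes. Of the 20 tested factors of complex IV 5 rose, among them Cox11 (1.15), Cox19 (0.86) and Cmc2 (0.84), known for copper delivery to the complex or its assembly. Cox11 was at a low level, 2.49, 2.24 and 1.87 CPM with the empty vector and 5.68, 3.95 and 4.92 CPM with the wildtype. In the mutant against the wildtype 11 of the 50 fell (22% against 12.7% of all genes) and 2 rose (4% against 13.2%). Of 76 mitochondrial ribosomal proteins, which translate the mitochondrially encoded subunits, 16 rose with the wildtype (21.1% against 11.4% of all genes) and 1 fell (Mrpl50, -0.48), with a median of 0.25. In the mutant against the wildtype 22 fell (28.9% against 12.7% of all genes). Among genes outside the member set, 19% under 600 bases and 20.8% of 800 to 1000 bases were higher with the wildtype. In the mutant against the wildtype, 20.5% and 23.7% of these classes were lower. The length trend was not taken out of the shares of these further lists, and its part in them was not tested.

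Regulators and enzymes that feed the chain were read as well. Of 17 regulators of mitochondrial genes none was called with the wildtype, where 11.4% of all genes were higher and 11.9% lower. Gabpa gave -0.35 and Tfam, the packaging factor of mitochondrial DNA, -0.20. The coactivators Ppargc1b and Pprc1 and the mitochondrial DNA polymerase Polg were the 3 regulators higher with the mutant than with the wildtype. That is 17.6% of the list, near the 13.2% of all genes. Ppargc1b was at 10.5, 11.2 and 12.1 CPM with the wildtype and 20.8, 19.7 and 19.5 CPM with the mutant. Of 17 citric acid cycle and pyruvate dehydrogenase genes, Dlst rose with the wildtype (0.45) and Suclg2 fell (-0.44). That is 5.88% of the list in each direction, below the shares of all genes, and the median was 0.01.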

How the data were processed

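RNA was measured in 9 libraries made from total RNA with Smart-seq2 and Nextera-based indexing, per the labels' protocols. The authors deposited raw counts of reads per gene in 1 table; the aligner was STAR and the builds were GRCm38.p4 and hg19, per the submitters' processing notes. The aligner's version, the counting tool and the annotation were not given in the sources used here. Groups and replicate numbers came from the titles. Members and gene lists were chosen with earlier results of these data known, and 1 listed marker gene is not reported here.

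The test was run in edgeR 4.0.16 under R 4.3.3 (TMM factors, filterByExpr, glmQLFit and glmQLFTest, 1 mean per group over 9 libraries, 6 residual degrees of freedom), leaving out the human GATA1 row; 9978 genes were tested. Benjamini-Hochberg adjustment was applied to each of the 3 comparisons separately. SE was derived as the size of the log2 fold change divided by the root of the F statistic. CPM used TMM-scaled totals. Log2 CPM had a prior count of 2 for the correlations and the offsets, while the per-library medians used log2 of CPM plus a small constant. Lengths and GC were those of GENCODE M21 principal transcripts, found for 79 members; offsets were splines with 5 degrees of freedom. The main edgeR fit was run on simulated counts and read for the wildtype against the empty vector. The alternative fits were not run on simulated counts.

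Named genes were a set of core subunits and isoform pairs, the up to 10 called members with the largest changes in each direction, the member of smallest p in each complex and up to 3 genes of each further list; others are named where counts were small and were then chosen after their values were seen. Alternatives were RLE factors, DESeq2 1.42.0, other low-count filters, the 6 libraries of a comparison alone, a replicate block, length and GC offsets, and leaving out each library. Deviations from the group mean of same-numbered mutant and wildtype libraries correlated at 0.17 to 0.53 in all 3 pairs. Replicates 1 and 2 also correlated across numbers (0.24 and 0.22). The block thus comes from the data and is not set by number alone, since the labels do not say what a number shares. Mutant replicates 1 and 2 were close to each other (chi-square per degree of freedom 2.21, against 15.0 to 55.5 for the other 8 pairs within groups) but beyond counting noise, and were kept apart, with their sum as an alternative.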

Additional observations from a re-analysis of the deposited data

How the results depend on the processing

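No member called as reported changed sign under any alternative run. Members called higher with the wildtype numbered 12 with length and GC offsets and 10 with offsets and the block, with 5 lower in each (all genes lower: 1857 with offsets), and the members' median was 0.11 in both (0.112 and 0.105). They numbered 25 with RLE factors, 32 with DESeq2, 33 without the low-count filter, 22 with a filter of 5 CPM in 3 libraries, 17 with 6 libraries and 19 with mutant replicates 1 and 2 summed. In the mutant against the wildtype, members higher numbered 1 with DESeq2 and without the filter, 4 with offsets, 3 with offsets and block, 3 with the block on 6 libraries and 6 with offsets and block there; members lower numbered 67 with that block and 17 with the summed replicates; medians were -0.16 (offsets), -0.16 (-0.159, with block) and -0.15 (-0.148, 6 libraries). All genes higher and lower numbered 2323 and 2417 with the 6-library block, 2219 and 1975 with offsets as well, and 779 and 772 with the summed replicates. In the mutant against the empty vector, all genes higher and lower numbered 63 and 39 with DESeq2, 119 and 296 without the filter, 60 and 28 with offsets, 33 and 15 with offsets and block, and 9 and 2 with the summed replicates.

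Leaving out 1 library at a time, members higher with the wildtype ranged from 4 to 55, all genes higher from 732 to 1614 and all genes lower from 655 to 1641. In the mutant against the wildtype, members lower ranged from 16 to 60, members higher from 0 to 1, all genes higher from 693 to 1581 and all genes lower from 778 to 1577. In the mutant against the empty vector, members lower ranged from 0 to 3, all genes higher from 5 to 227 and all genes lower from 2 to 610. The cause of each change was not tested, beyond the smaller number of libraries.

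Replicate numbers did not pair the empty vector libraries with the wildtype (correlations -0.37 to -0.22) or the mutant (-0.44 to -0.20). With a replicate block on 9 libraries, 19 members were higher with the wildtype, 24 were lower in the mutant against the wildtype, and 12 and 2 of all genes were higher and lower in the mutant against the empty vector. At 642 counts over 9 libraries, Cox6b2 rests on the fewest reads of the 81 members. The offsets need a length and were not fitted for Atp5o and Atp5sl.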
